A study of Mus musculus with 13 samples.

Results

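The genes described here encode the vacuolar proton pump (V-ATPase) and the proteins that mark intercalated cells, the acid and base secreting cells of the kidney collecting duct. They were chosen by name: every protein-coding gene of the kidney table whose symbol begins with Atp6v0 or Atp6v1, together with Slc4a1, Slc26a4, Slc4a9, Foxi1, Aqp6, Car2, Car12, Kit, Insrr, Rhbg and Rhcg. This gave 32 genes, 21 pump subunits and 11 intercalated cell genes, of 28183 genes listed and 18465 protein-coding ones. All 32 passed the filter on low values, and 29 had a value of at least 1 in every kidney library.

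RNA-seq was made from whole kidneys of a pair of mouse models of polycystic kidney disease, both on C57BL/6, and from a kidney cell line. The floxed Pkd1 gene of the first model is recombined by KSP/Cre, driven by the kidney-specific cadherin promoter of tubule epithelium, and kidneys were taken on postnatal day 10. The floxed Pkd2 gene of the other is recombined by Pkhd1/Cre, active in the collecting duct, and kidneys were taken on postnatal day 20. Each model has 2 knockout libraries (KSP/Cre+;Pkd1f/f or Pkhd1/Cre+;Pkd2f/f) and 2 control libraries of mice with the same floxed alleles and without Cre (KSP/Cre-;Pkd1f/f or Pkhd1/Cre-;Pkd2f/f). The titles of the Pkd2 knockout libraries carry the letters WT, but their genotype lists Cre and their column names a knockout. The cell line, mIMCD-3, comes from the mouse inner medullary collecting duct and was transfected with a gapmer, an antisense oligonucleotide that directs RNase H to its target, against the long noncoding RNA Hoxb3os at 10 nM (3 libraries) or with a control (2 libraries), and harvested after 48 h. The labels do not say whether replicates came from separate animals or cultures, and a p-value here reflects only how far these libraries spread, which may be technical.

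The V-ATPase has a cytosolic V1 part that hydrolyses ATP and a membrane V0 part through which protons pass. Most of its subunits are made in every cell, where the pump acidifies lysosomes and endosomes, but several have a second gene whose product is used by specialised cells such as the intercalated cell. Type A intercalated cells place the pump on the urinary side and secrete acid, while type B cells place it on the blood side and secrete bicarbonate through pendrin (Slc26a4). Foxi1, a forkhead transcription factor, is required for the intercalated cell fate in mice and activates Atp6v1b1 and Atp6v0a4.

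The promoters of the kidney-specific subunits are shown first because the contrast between kidney-specific and ubiquitous subunits runs through all the comparisons that follow. RefSeq sequences (GRCm38.p6, 250 bases before to 50 after the start, 300 bases, read 5′ to 3′ on the strand of the gene) were found for 21 of the 32 genes, with 25 promoters in all. The forkhead motif TGTTTAC, searched as TGTTTAC or GTAAACA, occurred in 3.65% of 32851 promoters and in 1 of the 25, that of Atp6v1b1, where it starts at position -98 from the start and is in capitals. In the other 3 sequences the capitals mark CG dinucleotides.
Atp6v1b1 (chr6:83742767-83743066, plus strand): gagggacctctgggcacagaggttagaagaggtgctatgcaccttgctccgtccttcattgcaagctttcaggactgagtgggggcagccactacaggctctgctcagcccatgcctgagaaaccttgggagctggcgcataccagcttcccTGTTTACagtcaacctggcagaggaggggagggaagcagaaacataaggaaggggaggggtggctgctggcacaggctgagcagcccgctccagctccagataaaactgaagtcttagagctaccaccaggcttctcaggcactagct
Atp6v0a4 (chr6:38124537-38124836, minus strand): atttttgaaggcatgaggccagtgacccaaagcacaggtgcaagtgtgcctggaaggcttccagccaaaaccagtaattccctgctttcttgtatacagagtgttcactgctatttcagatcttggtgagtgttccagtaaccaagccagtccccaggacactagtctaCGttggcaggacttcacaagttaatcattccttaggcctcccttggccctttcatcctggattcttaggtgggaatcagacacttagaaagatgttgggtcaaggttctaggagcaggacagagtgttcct
Atp6v1g3 (chr1:138273488-138273787, plus strand): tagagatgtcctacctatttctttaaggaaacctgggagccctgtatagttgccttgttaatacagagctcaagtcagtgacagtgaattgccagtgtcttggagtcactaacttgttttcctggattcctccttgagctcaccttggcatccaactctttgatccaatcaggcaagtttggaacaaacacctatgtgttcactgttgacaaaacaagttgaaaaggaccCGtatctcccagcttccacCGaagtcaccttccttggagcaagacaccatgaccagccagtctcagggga
Atp6v1c2 (chr12:17324681-17324980, minus strand): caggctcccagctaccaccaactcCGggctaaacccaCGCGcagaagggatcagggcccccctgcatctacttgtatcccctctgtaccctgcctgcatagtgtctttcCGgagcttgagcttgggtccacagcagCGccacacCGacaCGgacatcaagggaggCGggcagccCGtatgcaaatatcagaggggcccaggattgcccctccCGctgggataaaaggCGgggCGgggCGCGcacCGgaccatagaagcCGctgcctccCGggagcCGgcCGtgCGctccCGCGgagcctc
The promoters of Atp6v0a4, Atp6v1g3 and Atp6v1b1 held 1, 2 and 3 CG dinucleotides and that of Atp6v1c2 held 22, against a median of 7 over all promoters. Promoters of ubiquitous subunits held 7 to 30 (median 20, 11 promoters), and those of the intercalated cell genes 4 to 21 (median 9, 7 promoters).

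A pair of ubiquitous subunit promoters is shown for contrast, with the E-box TCACGTG or CACGTGA in capitals, a motif that lysosomal genes often carry. It occurred in 3.77% of all promoters and in 5 of the 25, those of Atp6v1a, Atp6v0d1, Atp6v0b, Atp6v0e and Aqp6. In the sequences below, both readings overlap in 1 site.
Atp6v1a (chr16:44139210-44139509, minus strand): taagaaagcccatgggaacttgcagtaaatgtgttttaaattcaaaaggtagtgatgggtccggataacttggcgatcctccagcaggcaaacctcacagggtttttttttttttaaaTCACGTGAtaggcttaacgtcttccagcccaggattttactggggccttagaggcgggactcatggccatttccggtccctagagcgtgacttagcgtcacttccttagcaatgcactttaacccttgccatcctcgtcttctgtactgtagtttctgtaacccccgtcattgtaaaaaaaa
Atp6v0d1 (chr8:105566015-105566314, minus strand): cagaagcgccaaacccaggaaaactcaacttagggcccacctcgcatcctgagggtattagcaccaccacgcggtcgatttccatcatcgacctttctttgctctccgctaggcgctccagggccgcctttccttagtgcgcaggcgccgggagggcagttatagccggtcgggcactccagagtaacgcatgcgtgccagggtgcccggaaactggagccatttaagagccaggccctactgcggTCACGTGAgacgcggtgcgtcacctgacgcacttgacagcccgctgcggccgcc
The 4 kidney-specific subunit promoters shown above did not hold the E-box letters in this window, and that of Atp6v0d2 was not searched. A match is a description of the letters, and binding was not measured.

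Kidney values below are counts that the authors scaled for depth, written as scaled values, and a fold change is the difference of mean log2(value + 1), which understates changes of genes with low values. A gene was called when limma's Benjamini-Hochberg adjusted p over all 14637 genes tested was below 0.05. Depth, recovered from the smallest step of the values, was 30.7 to 94.4 M reads a library, and the lowest value of any of the 32 genes, that of Aqp6, rested on 32 reads. Mitochondrial genes took a smaller share of the values in every knockout than in the controls of its model (27.4% and 38.7% in controls against 22.05% and 22.5% in Pkd1 knockouts, and 41.4% and 41.3% against 34.7% and 30.1% in the Pkd2 model), and the part of this in the results was not tested. Xist and the summed Y-linked genes were not balanced between groups, and the labels give no sex. Xist was 0.221 and 416 in Pkd1 controls, 25.3 and 27.7 in Pkd1 knockouts, 346 and 350 in Pkd2 controls. It was 1.74 and 449 in Pkd2 knockouts 1 and 2. The Y-linked sums were, in the same order, 155 and 10.4, 149 and 183, 0.104 and 0.0221, and 169 and 0.0462. Values of the targeted genes over their whole length are no check of the labels, since they can include exons outside the deleted part and cells without Cre. Pkd1 was 31.1 and 22.7 in its controls and 24.1 and 26.0 in its knockouts, and Pkd2 was 69.0 and 61.2 against 50.7 and 53.3.

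Most intercalated cell genes fell in both cystic models, among them every type B cell gene, while most pump subunits were not called. In the Pkd1 model 12 of the 32 genes were called, 1 higher and 11 lower, where 10.6% of all genes tested were called (5.48% lower and 5.11% higher). In the Pkd2 model 11 were called, 1 higher and 10 lower, where 17.7% of all genes tested were called (8.13% lower and 9.54% higher). The median log2 fold change of the 32 genes was -0.52 and -0.51, against medians of all genes of -0.0021 and -0.0082. The models share no libraries, but both were tested in 1 fit with a shared estimate of each gene's spread, so their calls are not independent. Of the 32 genes, 7 fell in both (Rhbg, Insrr, Slc26a4, Slc4a9, Car12, Aqp6 and Atp6v1c2), while 3.04% of all genes tested did, and 25 had a fold change below 0 in both, as did 39.2% of all genes. In a fit on the 4 Pkd2 libraries alone, Car12 and Aqp6 were not called. In a bulk kidney, fewer cells of a type and less RNA per cell cannot be told apart.

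**Figure D1:**
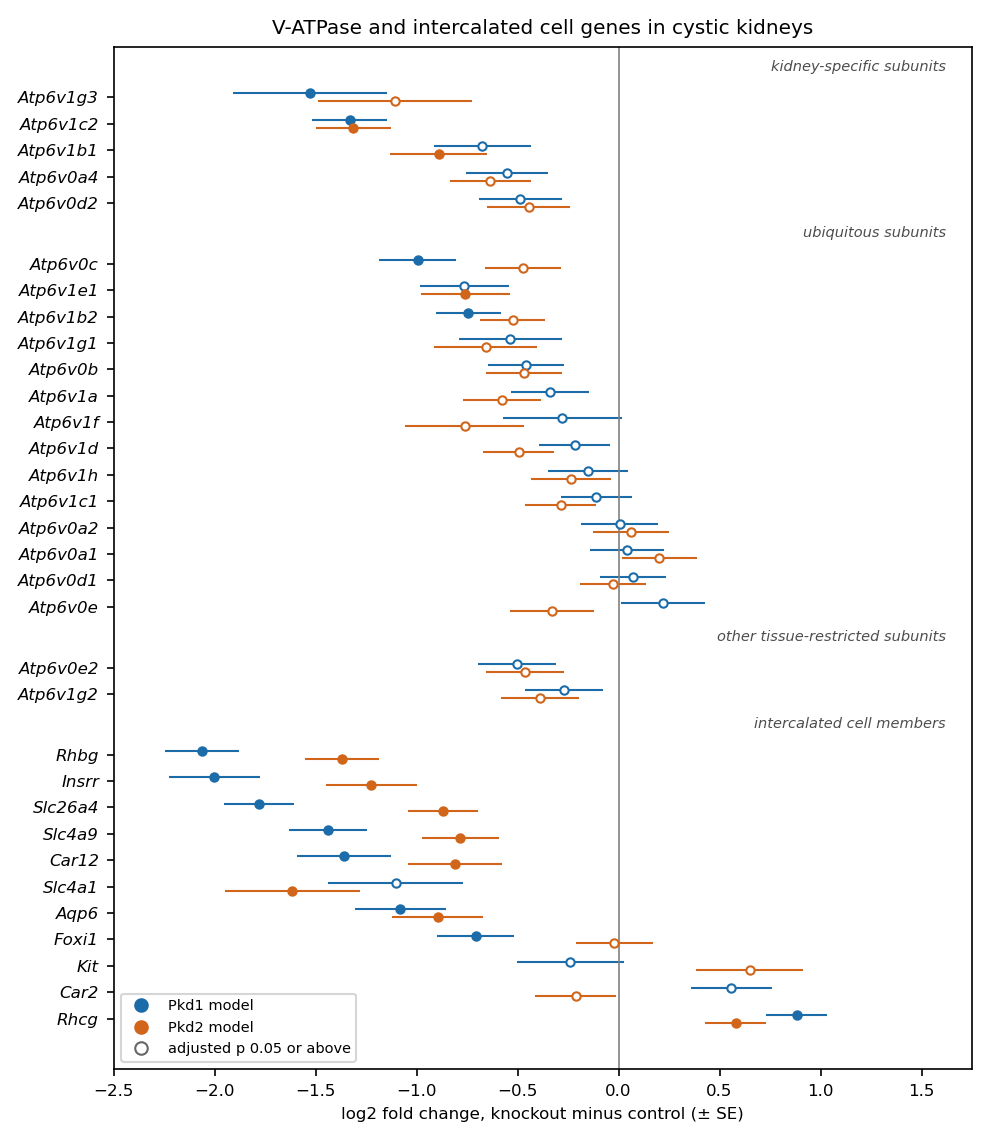
Log2 fold change (knockout minus control, on the log2(value + 1) scale) of each of the 32 genes in the Pkd1 model (blue) and the Pkd2 model (orange), with bars of 1 SE and 2 libraries a group. Filled points have an adjusted p below 0.05. Intercalated cell genes reach -2.06 (Rhbg), while Rhcg lies above 0 in both models.

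Among the subunits of kidney-specific expression, Atp6v1c2, the alternative C subunit of the V1 stalk, fell in both models. Its values were 11.4 and 10.4 in Pkd1 controls and 3.33 and 4.15 in Pkd1 knockouts, and 17.0 and 16.7 in Pkd2 controls and 7.09 and 5.36 in Pkd2 knockouts. Knockouts lay well below controls in each model, with knockout means at 0.343 and 0.370 of the control means. The log2 fold changes were -1.33 ± 0.19 (SE, adjusted p = 0.0045) and -1.31 ± 0.19 (adjusted p = 0.0030), and they differed between the models by -0.02 (adjusted p = 1.0). Atp6v1g3, the alternative G subunit of the stalk, was 15.0 and 33.9 in Pkd1 controls, 6.84 and 7.56 in Pkd1 knockouts, 27.8 and 29.0 in Pkd2 controls and 17.9 and 8.88 in Pkd2 knockouts. The groups did not overlap, but the Pkd1 controls and the Pkd2 knockouts each spread by about 2-fold. It fell in the Pkd1 model (-1.53 ± 0.38, adjusted p = 0.037), and in the Pkd2 model the fold change was -1.11 ± 0.38 (adjusted p = 0.078).

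Atp6v1b1, the B subunit of the ATP-binding ring that is mutated in human distal renal tubular acidosis with deafness, was 21.6 and 21.0 in Pkd1 controls and 16.4 and 10.2 in Pkd1 knockouts. In the Pkd2 model it was 22.8 and 29.7 in controls and 15.3 and 12.05 in knockouts. All 4 knockout values lay below the controls of their model, but only the Pkd2 change passed the test (-0.89 ± 0.24, adjusted p = 0.035, against -0.67 ± 0.24, adjusted p = 0.11, in the Pkd1 model). Atp6v0a4, the a subunit of the proton path and the other pump gene of human distal renal tubular acidosis, was 57.2 and 68.2 against 35.4 and 50.4 in the Pkd1 model and 100.9 and 105 against 69.7 and 62.7 in the Pkd2 model. Its fold changes of -0.55 ± 0.20 and -0.63 ± 0.20 were not called (adjusted p = 0.12 and 0.063). Atp6v0d2, the alternative d subunit, which osteoclasts also use, had 7.44 and 10.1 against 5.04 and 6.92, and 11.8 and 12.3 against 8.10 and 9.16. It had fold changes of -0.49 ± 0.21 and -0.44 ± 0.21, not called (adjusted p = 0.17 in each).

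Of these 5 subunits 2 fell in each model, with median log2 fold changes of -0.67 and -0.89, and in all 5 both knockout libraries lay below both controls in each model. Over all genes tested that pattern occurred in 29.2% (Pkd1) and 30.9% (Pkd2), and 5.48% and 8.13% were called lower. The call of Atp6v1c2 held in both models without any 1 of the 8 libraries. The call of Atp6v1g3 in the Pkd1 model was lost without control 2 or either knockout of that model or without either Pkd2 control, with adjusted p up to 0.17, and that of Atp6v1b1 in the Pkd2 model without either control of either model or without Pkd2 knockout 2, with adjusted p up to 0.24. In the authors' deposited table, Atp6v1c2 and Atp6v1g3 passed an adjusted p of 0.05 in both models and the other 3 in neither.

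Most ubiquitous subunits, like most genes tested, were not called, and they spread from clear falls to no change. Of 14, 2 fell in the Pkd1 model and 1 fell in the Pkd2 model, with median log2 fold changes of -0.25 and -0.47, and both knockouts lay below both controls for 6 and 10 of them. Over all genes tested, 5.48% and 8.13% were called lower, and both knockouts lay below both controls in 29.2% and 30.9%. Atp6v0c, which forms the proteolipid ring of V0, was 118 and 111 in Pkd1 controls and 51.2 and 63.3 in Pkd1 knockouts, a log2 fold change of -0.99 ± 0.19 (adjusted p = 0.015). In the Pkd2 model it was 135 and 152 against 114 and 92.7 (-0.47 ± 0.19, adjusted p = 0.12). Atp6v1b2, the ubiquitous B subunit, fell in the Pkd1 model from 55.2 and 63.9 to 33.6 and 36.6 (-0.74 ± 0.16, adjusted p = 0.023). Its Pkd2 values were 82.2 and 85.8 against 60.7 and 55.6 (-0.52 ± 0.16, adjusted p = 0.055). Atp6v1e1, the E subunit of the stalk, fell in the Pkd2 model from 59.1 and 61.6 to 43.1 and 28.9 (-0.76 ± 0.22, adjusted p = 0.046). Its Pkd1 values were 43.6 and 56.7 against 27.2 and 30.6, with the same fold change of -0.76 ± 0.22 but an adjusted p of 0.060. The call of Atp6v0c was lost without either Pkd1 control or Pkd1 knockout 1 (adjusted p up to 0.10), and that of Atp6v1b2 without any 1 of the 4 Pkd1 libraries or of the 2 Pkd2 controls (up to 0.13). The call of Atp6v1e1 was kept in 1 of 8 cases, without Pkd2 knockout 1, and adjusted p rose to 0.23 in the others.

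At the other end, 3 ubiquitous V0 subunits stayed near 0 in both models. Atp6v0a1, an a subunit, had 38.0 and 34.7 against 37.7 and 37.2 in the Pkd1 model and 29.4 and 39.7 against 36.6 and 42.4 in the Pkd2 model. Atp6v0a2, another a subunit, had 21.0 and 21.5 against 21.1 and 21.6, and 27.4 and 26.5 against 23.5 and 33.9. Atp6v0d1, the ubiquitous d subunit, had 14.8 and 14.8 against 14.4 and 16.9, and 17.5 and 15.1 against 15.4 and 16.5. Their groups overlapped in both models, and their fold changes ran from -0.03 to 0.20 with an SE of 0.16 to 0.19. Atp6v1a, the catalytic A subunit, which has no second gene, was 198 and 228 against 153 and 184 in the Pkd1 model and 298 and 304 against 210 and 193 in the Pkd2 model (-0.34 ± 0.19 and -0.58 ± 0.19, adjusted p = 0.30 and 0.072). The other ubiquitous subunits (Atp6v1g1, Atp6v0b, Atp6v1f, Atp6v1d, Atp6v1h, Atp6v1c1 and Atp6v0e) had fold changes from -0.54 to 0.22 and from -0.76 to -0.23, none called. The remaining tissue-restricted subunits were not called either, with -0.50 and -0.46 for Atp6v0e2 and -0.27 and -0.39 for Atp6v1g2. Atp6v1e2 was not analysed here.

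The median log2 fold change of the kidney-specific subunits lay below that of the ubiquitous ones by -0.43 in the Pkd1 model and -0.42 in the Pkd2 model. In single libraries, the median log2(value + 1) of the first list minus that of the other had a pooled SD within groups of 0.16. That SD is a spread of levels between libraries and not of the fold change difference. No test was made of the difference in median fold change between lists. It ran from -0.73 to -0.29 in the Pkd1 model and from -0.63 to -0.24 in the Pkd2 model as single libraries were left out, the ends being without Pkd1 knockout 1 and Pkd1 control 1, and without Pkd2 control 1 and Pkd2 control 2.

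Set beside its ubiquitous counterpart in the same library, a kidney-specific subunit was lower in knockouts, with no overlap, in 9 of 10 comparisons. With 2 libraries against 2 such a separation is frequent (29.2% and 30.9% of single genes, as above), and its share over ratios of gene pairs was not computed. The log2 ratio of Atp6v1c2 to Atp6v1c1 was 0.01 and -0.49 in Pkd1 controls and -1.94 and -1.41 in Pkd1 knockouts, and -0.43 and -0.34 in Pkd2 controls and -1.38 and -1.69 in Pkd2 knockouts. The knockout mean was lower by -1.43 and -1.15, with no overlap. For Atp6v1g3 to Atp6v1g1 the differences were -1.10 and -0.50, for Atp6v0a4 to Atp6v0a1 -0.61 and -0.85, and for Atp6v0d2 to Atp6v0d1 -0.63 and -0.46, each with no overlap of knockouts and controls. For Atp6v1b1 to Atp6v1b2 the Pkd1 groups overlapped (difference 0.04), and the Pkd2 difference was -0.41 with no overlap. Both B subunits were lower in the knockouts of both models. Per kilobase of exon, Atp6v0a4 had the higher level of its pair, 17.6 against 8.99 for Atp6v0a1 in Pkd1 controls and 28.9 against 8.53 in Pkd2 controls. That ratio of levels went from 1.96 to 1.3003 in the Pkd1 model and from 3.39 to 1.90 in the Pkd2 model. Atp6v1c2 and Atp6v1c1 had like levels per kilobase in controls, with ratios of 1.05 and 0.957, and 0.394 and 0.436 in knockouts. Atp6v1b1, Atp6v1g3 and Atp6v0d2 were the lower of their pair in every group.

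**Figure D2:**
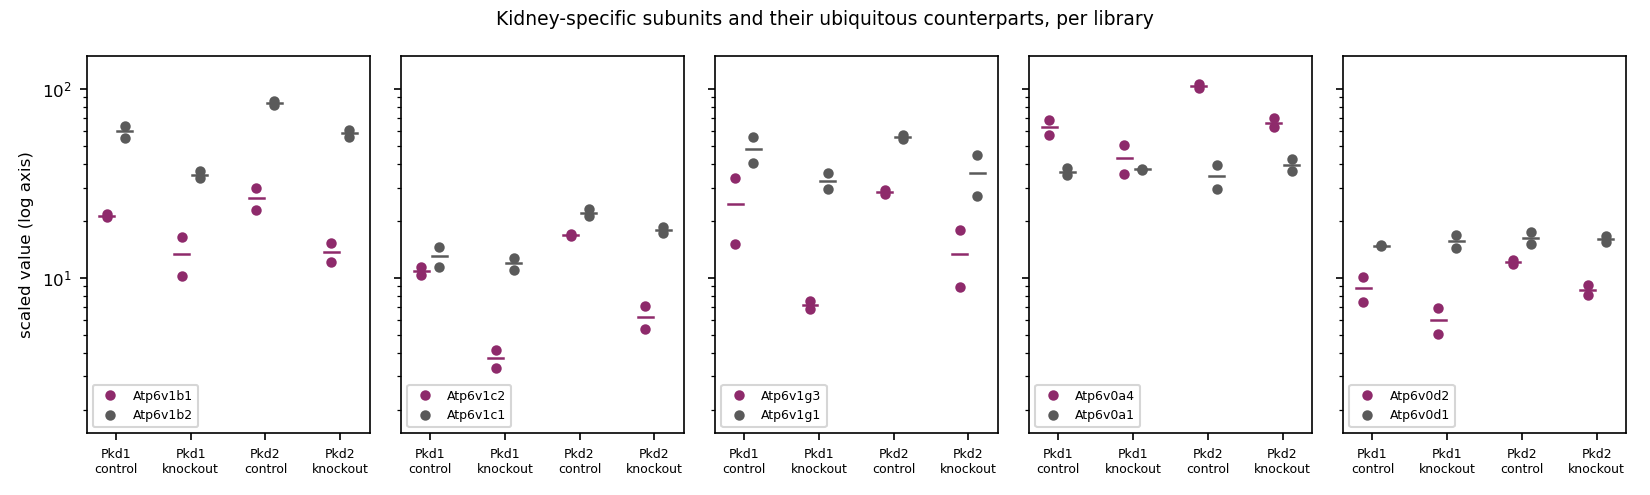
Scaled value (log axis) of each kidney-specific subunit (purple) and its ubiquitous counterpart (grey) in the 4 kidney groups, with 1 point a library and a line at the group mean. The scaled values are not per length, so heights compare libraries of 1 gene and not genes. Atp6v1c2 went from 11.4 and 10.4 to 3.33 and 4.15 in the Pkd1 model while Atp6v0d1 and Atp6v0a1 stayed level.

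Exons of some subunits overlap other genes, and the sources used here do not say whether strand was counted. Atp6v0a4 shares 7.26% of its exon bases with D630045J12Rik on the same strand and 1.74% with Tmem213 on the other, and Atp6v1c2 shares 3.02% with Pdia6 on the other strand. Pdia6 had 105 and 109 against 113 and 95.5 in the Pkd1 model and 82.3 and 77.7 against 87.3 and 89.8 in the Pkd2 model, with overlapping groups in the first and slightly higher knockouts in the second. D630045J12Rik was lower in the knockouts of both models, as Atp6v0a4 was, with 37.5 and 37.9 against 33.4 and 32.8 and with 57.02 and 55.02 against 45.6 and 30.7. Tmem213 overlapped between Pkd1 groups (19.4 and 25.2 against 20.4 and 28.1) and was lower in Pkd2 knockouts (20.9 and 21.4 against 17.7 and 8.32). The part of shared reads in the values of Atp6v0a4 was not tested.

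Of the 11 intercalated cell genes, 7 fell and 1 rose in each model, with median log2 fold changes of -1.10 and -0.81. Over all genes tested, 5.48% (Pkd1) and 8.13% (Pkd2) were called lower, and 5.11% and 9.54% higher. Among type B genes, Slc26a4 (pendrin, the apical chloride and bicarbonate exchanger) was 4.82 and 5.60 in Pkd1 controls and 0.781 and 0.825 in Pkd1 knockouts, and 8.99 and 10.9 in Pkd2 controls and 4.91 and 5.06 in Pkd2 knockouts. Replicates lay close together, and the knockout means were 0.154 and 0.5001 of the control means. The fold changes were -1.78 ± 0.17 (adjusted p = 0.0013) and -0.87 ± 0.17 (adjusted p = 0.011). Slc4a9, a basolateral anion exchanger of type B cells, was 24.1 and 22.8 against 6.67 and 9.63 in the Pkd1 model and 19.5 and 21.2 against 12.2 and 10.7 in the Pkd2 model. It fell, with log2 fold changes of -1.44 ± 0.19 and -0.78 ± 0.19 (adjusted p = 0.0039 and 0.025). Insrr, a receptor tyrosine kinase that senses alkali, was 9.92 and 7.26 against 1.39 and 1.35 in the Pkd1 model and 8.50 and 12.02 against 4.32 and 3.26 in the Pkd2 model. It fell, with log2 fold changes of -2.002 ± 0.23 and -1.22 ± 0.23 (adjusted p = 0.0021 and 0.0084). The 3 genes fell in both models with no overlap of groups.

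The ammonia carriers went opposite ways. Rhbg, the basolateral carrier, was 10.4 and 10.8 in Pkd1 controls and 1.89 and 1.67 in Pkd1 knockouts, and 8.58 and 11.2 in Pkd2 controls and 3.45 and 2.94 in Pkd2 knockouts. It fell, with log2 fold changes of -2.06 ± 0.18 (adjusted p = 0.0010) and -1.37 ± 0.18 (adjusted p = 0.0025), and its call held without any 1 of the 8 libraries. Rhbg is uncertain as a gene, since 61.4% of its exon bases are shared on the same strand with Gm38392, whose values were 9.76 and 6.67 against 1.49 and 1.14, and 6.06 and 8.37 against 1.91 and 2.27. Rhcg, the carrier found on the apical side as well, was 28.8 and 27.7 in Pkd1 controls and 55.5 and 50.4 in Pkd1 knockouts, and 23.9 and 21.7 in Pkd2 controls and 35.4 and 33.8 in Pkd2 knockouts. All knockouts lay above all controls, and Rhcg rose on the log2 scale by 0.88 ± 0.15 (adjusted p = 0.0094) and 0.58 ± 0.15 (adjusted p = 0.032), the only one of the 32 genes to rise in either model. Its call was lost without either control of the Pkd1 model and without Pkd1 knockout 1 in the Pkd1 comparison (adjusted p up to 0.068), and without any of the 4 controls or Pkd2 knockout 2 in the Pkd2 comparison (adjusted p up to 0.23). In the authors' deposited table Rhcg did not pass in either model (adjusted p = 0.12 and 0.39).

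Type A genes gave a mixed picture. Slc4a1, the basolateral anion exchanger of type A cells and of red blood cells, was 6.83 and 5.73 in Pkd1 controls and 1.27 and 4.04 in Pkd1 knockouts, where the knockouts differed by about 3-fold and the change was not called (-1.10 ± 0.33, adjusted p = 0.071). In the Pkd2 model it fell from 11.95 and 16.0 to 3.64 and 4.07 (-1.61 ± 0.33, adjusted p = 0.014). Red blood cells in the tissue were not tested as a source. Aqp6, an intracellular water channel of type A cells, was 3.11 and 1.84 against 0.556 and 0.677 in the Pkd1 model and 4.002 and 4.81 against 2.30 and 1.55 in the Pkd2 model, and fell, with log2 fold changes of -1.08 ± 0.23 and -0.89 ± 0.23 (adjusted p = 0.020 and 0.028). Kit, a receptor tyrosine kinase, was 18.7 and 17.0 against 15.0 and 14.9 in the Pkd1 model and 13.9 and 14.1 against 16.1 and 31.3 in the Pkd2 model. Neither change was called (-0.24 ± 0.27 and 0.65 ± 0.27, adjusted p = 0.60 and 0.13), and Pkd2 knockout 2 alone stood high. Kit also marks mast cells. Of 7 other mast cell genes, Cpa3, Tpsb2, Mcpt4, Cma1 and Fcer1a were at most 0.284 in any library. Hdc, which makes histamine, fell in both models (log2 fold changes of -2.02 and -1.16), and Ms4a2 was not called. In Pkd2 knockouts 1 and 2 Hdc was 0.953 and 1.73 and Ms4a2 0.140 and 0.277, higher in knockout 2 as Kit was, and both genes were higher still in both Pkd2 controls. The part of mast cells in the Kit values was not tested.

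Foxi1 was 8.98 and 6.78 in Pkd1 controls and 4.27 and 4.53 in Pkd1 knockouts, a log2 fold change of -0.71 ± 0.19 (adjusted p = 0.049). In the Pkd2 model its groups overlapped, with 6.45 and 6.09 in controls and 5.47 and 6.94 in knockouts (-0.02 ± 0.19, adjusted p = 0.96). The Pkd1 call was lost without any 1 of the 4 Pkd1 libraries or of the 2 Pkd2 controls (adjusted p up to 0.27), and the difference between the models was not called (-0.69, adjusted p = 0.52). Carbonic anhydrases supply the protons and bicarbonate. Car12, anchored in the membrane, was 174 and 167 against 55.8 and 77.6 in the Pkd1 model and 177 and 180 against 123 and 84.1 in the Pkd2 model, and fell, with log2 fold changes of -1.36 ± 0.23 and -0.81 ± 0.23 (adjusted p = 0.0091 and 0.044). Car2, the cytosolic enzyme, was 88.6 and 78.0 against 105 and 145 in the Pkd1 model and 128 and 140 against 118 and 112 in the Pkd2 model, with fold changes that were not called (0.56 ± 0.20 and -0.21 ± 0.20, adjusted p = 0.11 and 0.50).

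**Figure D3:**
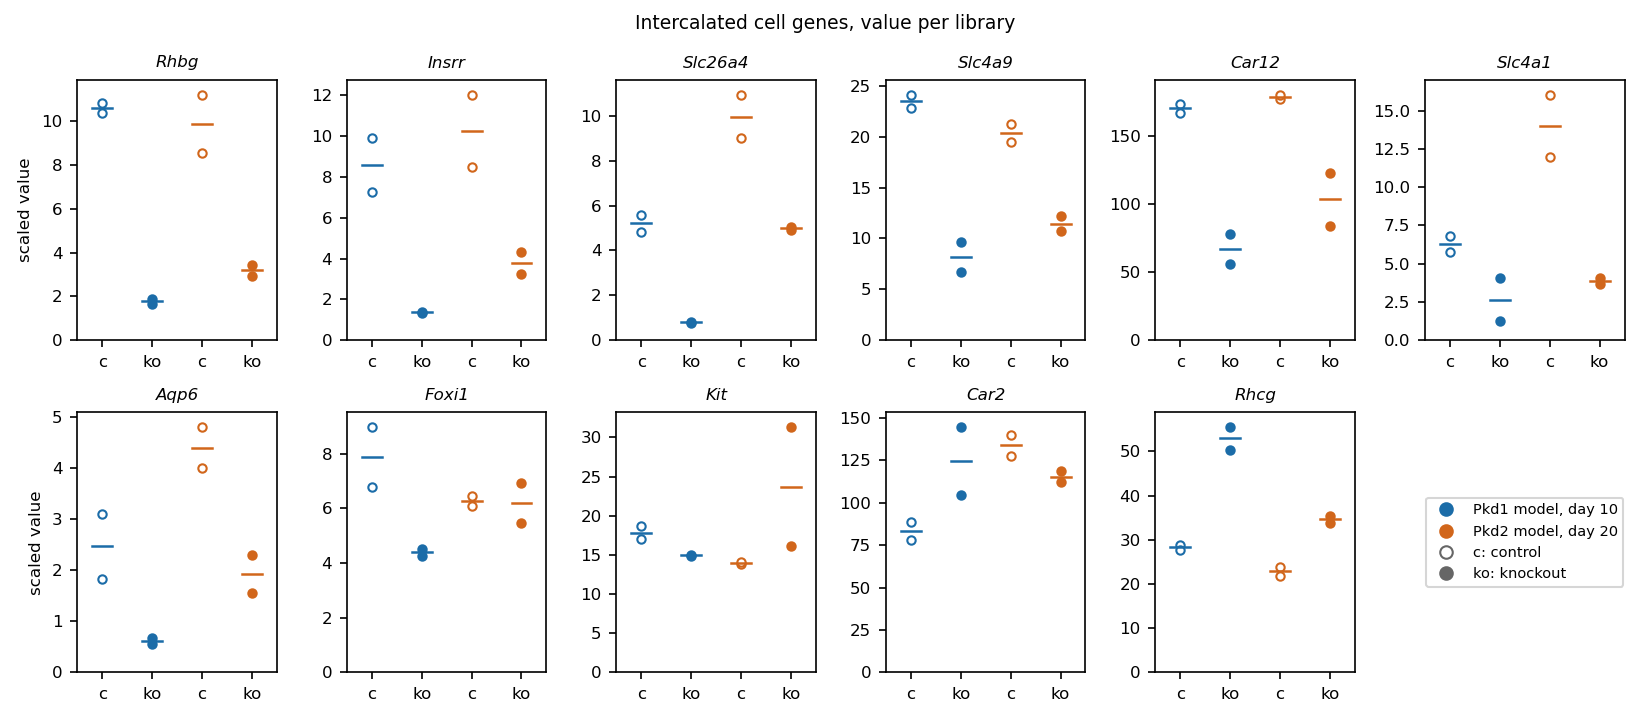
Scaled value of each of the 11 intercalated cell genes in controls (c, open) and knockouts (ko, filled) of the Pkd1 model (blue) and the Pkd2 model (orange), with 1 point a library and a line at the group mean. Rhcg is higher in both knockout groups (55.5 and 50.4, 35.4 and 33.8), Rhbg lower in both, and Kit stands high in 1 Pkd2 knockout library (31.3).

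Single libraries moved these counts by over 1.5 times. Without the libraries named next, calls over all genes tested moved in the same directions, so such shifts are not particular to these genes. Of 12 calls in the Pkd1 model, 6 were left without Pkd1 control 1, 6 without Pkd1 control 2 and 5 without Pkd1 knockout 1. Of 11 in the Pkd2 model, 4 were left without Pkd2 control 1, 2 without Pkd2 control 2 and 3 without Pkd2 knockout 2, and 18 were made without Pkd2 knockout 1. Rhbg, Insrr, Slc26a4, Slc4a9 and Atp6v1c2 were called in the Pkd1 model whichever library was left out, and Rhbg and Atp6v1c2 in the Pkd2 model. In the Pkd1 model the call of Car12 was lost without either Pkd1 control or Pkd1 knockout 1 (adjusted p up to 0.076), and that of Aqp6 without Pkd1 control 1 or either Pkd1 knockout (up to 0.15). In the Pkd2 model the call of Slc26a4 was lost without Pkd2 control 2 (adjusted p = 0.12) and that of Insrr without Pkd2 control 2 or Pkd2 knockout 2 (up to 0.083). Those of Slc4a9, Slc4a1 and Aqp6 were lost without either Pkd2 control or Pkd2 knockout 2 (adjusted p up to 0.17, 0.11 and 0.18), and that of Car12 without these or either Pkd1 control (up to 0.21). Of the 32 genes, 9 were lower in Pkd1 knockouts in the authors' deposited table at an adjusted p below 0.05 (4.35% of listed genes were) and 6 in Pkd2 knockouts (4.58%), with none higher (3.59% and 5.68%). Of the 7 genes that fell in both models in the present fit, Slc26a4, Slc4a9 and Car12 did not pass there in the Pkd2 model (adjusted p = 0.068, 0.15 and 0.18 in the authors' deposited table). Slc4a1, not called in the Pkd1 model here, passed there (adjusted p = 0.017), as did Atp6v1g3 in the Pkd2 model (adjusted p = 0.035). The genes that fell in either model in the present fit and passed in neither there were Foxi1, Atp6v0c, Atp6v1b2, Atp6v1b1 and Atp6v1e1.

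Knockout effects were set against each other by testing their difference, Pkd1 minus Pkd2, which also holds the differences in age, floxed gene and Cre. By limma none of the 32 genes was called, where 0.00683% of all genes tested (1 gene) was and 1207 genes had an unadjusted p below 0.05. The largest differences were those of Slc26a4 (-0.91 ± 0.24, adjusted p = 0.27), Kit (-0.89 ± 0.38, adjusted p = 0.57) and Insrr (-0.78 ± 0.32, adjusted p = 0.55). DESeq2 on recovered reads called 1 of the 32 genes, Slc26a4, and edgeR none.

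Control kidneys of day 20 were compared with those of day 10, a contrast that also holds the floxed gene and uses the same controls as the knockout comparisons. Of the 32 genes 2 rose and none fell, where 12.3% of all genes tested were called (5.04% higher and 7.26% lower). Slc26a4 was 8.99 and 10.9 at day 20 against 4.82 and 5.60 at day 10 (0.82 ± 0.17, adjusted p = 0.017). Atp6v1c1, the ubiquitous C subunit, was 23.0 and 21.1 against 11.4 and 14.6 (0.73 ± 0.18, adjusted p = 0.029). With the summed Y-linked genes as a sex covariate, neither Slc26a4 nor Atp6v1c1 was called. Xist was 346 and 350 in the controls of day 20 and 0.221 and 416 in those of day 10. Kidney-specific subunits had fold changes from 0.28 to 0.71, none called, the highest being that of Atp6v0a4 (100.9 and 105 against 57.2 and 68.2, adjusted p = 0.053). No call was made without Pkd1 control 1 or without either Pkd2 control, 1 was made without Pkd1 control 2, 4 without either Pkd1 knockout and 5 without either Pkd2 knockout.

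Wider marker lists place these changes in the tissue, beside 5.48% (Pkd1) and 8.13% (Pkd2) of all genes tested called lower. All 4 type B genes (the 3 above and Hmx2, a homeobox factor) fell in both models, Hmx2 with log2 fold changes of -1.73 and -1.13 from values of 3.43 and 4.09, and 3.95 and 3.31, in controls. Of the 5 type A genes 1 fell in the Pkd1 model and 2 in the Pkd2 model, with Dmrt2 and Adgrf5 not called. Of 10 other intercalated cell genes tested, 6 fell in the Pkd1 model and 4 in the Pkd2 model. Among those that fell in both, the log2 fold changes were -1.51 and -1.52 for Bsnd, which encodes barttin. They were -0.94 and -1.01 for Oxgr1, an oxoglutarate receptor, and -0.94 and -1.08 for Slc26a7, an anion exchanger. Bsnd is also made in the thick limb and distal tubule.

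Of 10 genes of principal cells, the other cell type of the collecting duct, 4 rose in the Pkd1 and 5 in the Pkd2 model. None fell, and the rest were not called. Of all genes tested, 5.11% and 9.54% were called higher and 5.48% and 8.13% lower. Avpr2, the vasopressin receptor, rose by 1.84 and 0.83 on the log2 scale and Elf5, a transcription factor, by 0.89 and 1.29. Scnn1a, a subunit of the epithelial sodium channel, rose by 1.89 in the Pkd1 model (0.19 in the Pkd2 model, not called), and the difference was not called (1.70, adjusted p = 0.096). Aqp2, the vasopressin-regulated water channel, had log2 fold changes of -0.55 and -0.32, and Aqp3, the basolateral one, of 0.83 and -0.04, none of them called. Proximal tubule genes fell, 8 of 10 in each model, and their summed value was 2603 and 2872 in Pkd1 controls, 827 and 1176 in Pkd1 knockouts, 4192 and 5136 in Pkd2 controls and 2295 and 1526 in Pkd2 knockouts. Macrophage genes rose, 9 of 10 in each model, with summed values of 51.1 and 45.2 against 145 and 142, and 48.7 and 50.5 against 221 and 255. The part of these shifts in the values of the 32 genes was not tested.

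Most genes that build or regulate the pump were not called, like most genes tested (10.6% and 17.7% of all were called). Of 12 accessory and assembly genes 1 fell in the Pkd1 model and none was called in the Pkd2 model, with median log2 fold changes of -0.06 and -0.03. The one was Rogdi, a pump regulator, with 32.1 and 21.7 against 12.9 and 13.1 (-0.97 ± 0.20, adjusted p = 0.021). Of 18 lysosome genes 1 rose and 2 fell in the Pkd1 model and 1 rose in the Pkd2 model. Ctsd, the protease cathepsin D, rose in both, from 232 and 231 to 409 and 521 and from 215 and 220 to 472 and 537 (0.99 and 1.21, adjusted p = 0.021 and 0.0069). Hexa, a lysosomal enzyme gene, fell in the Pkd1 model (-0.87, adjusted p = 0.016). Its fold change in the Pkd2 model was -0.17, not called.

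In mIMCD-3 cells 7 of the 32 symbols were present in the table of 2016 genes, which holds only genes with a deposited adjusted p of at most 0.05, so their presence there is a selection, and 2015 of the 2016 were called in the present fit too (100% when rounded, 55.6% lower and 44.4% higher). The selection used these same libraries, so an adjusted p within the table is no test of a change and is given as description only. Values are counts scaled by the authors with a library's size factor. None of the 5 kidney-specific subunits was among the 7, and no more is known here of their level in these cells. Slc26a4 was 59.1 and 51.1 with the control gapmer and 128, 118 and 98.0 with the Hoxb3os gapmer, a log2 fold change of 1.04 ± 0.18 (adjusted p = 7.0e-06), where the authors' deposited table gives 0.39. Car12 was 290 and 383 against 225, 222 and 218, a log2 fold change of -0.59 ± 0.12 (adjusted p = 3.8e-05), where the authors' deposited table gives -0.38. For Slc26a4 the gap between groups was wider than the spread of replicates. For Car12 the groups did not overlap, but the controls (290 and 383) lay further apart than the gap to the Hoxb3os gapmer libraries.

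The other 5 genes fell by little, beside a signed median of -0.14 over the table, which mixes genes chosen for being higher and genes chosen for being lower. Car2 was 929 and 950 against 805, 820 and 805 (-0.21 ± 0.07). Atp6v1b2 was 6564 and 6908 against 5943, 5642 and 5867 (-0.21 ± 0.04), and Atp6v0e2 3195 and 3056 against 2815, 2718 and 2614 (-0.20 ± 0.05). Atp6v0d1 was 5452 and 5713 against 5054, 5127 and 5009 (-0.14 ± 0.04), and Atp6v1c1 7894 and 8296 against 7455, 7419 and 7380 (-0.13 ± 0.04). Their adjusted p by limma ran from 7.6e-05 to 0.0055, within the selected genes only. Of the wider lists the table held 2 accessory and assembly genes, both lower, 4 lysosome genes, 1 higher and 3 lower, 2 proximal tubule genes, both lower (-0.51 and -0.44), 1 of the other intercalated cell genes, lower (-0.21), and no principal cell, macrophage or mast cell gene. Without control replicate 2 the calls of Atp6v0d1 and Atp6v1c1 were lost (adjusted p up to 0.086).

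**Figure D4:**
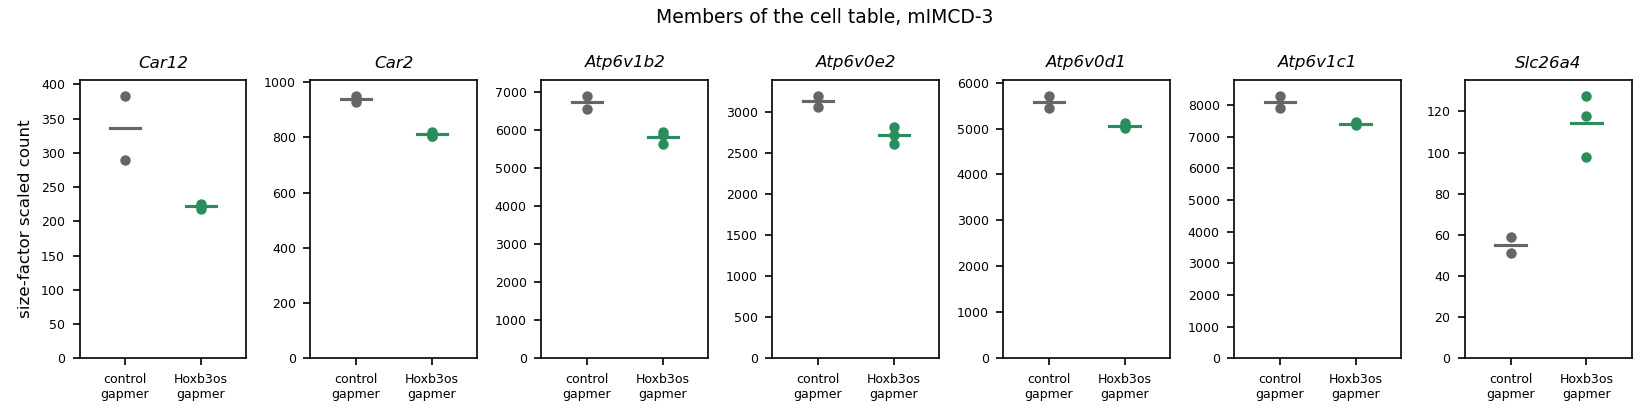
Size-factor scaled count of the 7 genes in mIMCD-3 cells with the control gapmer (grey, 2 libraries) and the Hoxb3os gapmer (green, 3 libraries), with a line at the group mean and axes from 0. Slc26a4 is the gene that lies higher with the Hoxb3os gapmer (98.0 to 128 against 51.1 and 59.1).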

How the data were processed

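Trizol extraction and TruSeq libraries are given, per the labels' protocols. The submitters' processing notes name FastQC 0.11.2, Trimmomatic 0.32, STAR 2.4.2a, SAMtools 1.0, Cufflinks 2.2.1, RSEM 1.2.22, edgeR and DESeq2 1.12.3, with builds mm10 and GRCm38. Their roles, the annotation and the strand setting have no entry (not given in the sources used here). Both tables deposited by the authors hold a signal for each gene in each library, scaled read counts as far as the values show. The deposited log2 fold changes run as control minus knockout for kidneys and as Hoxb3os gapmer minus control for cells, and the deposited p-values are named as adjusted in the headers.

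The planned test was for counts if counts were given. Since values are scaled, limma 3.58.1 (trend, R 4.3.3) was used on log2(value + 1), for kidney genes reaching 1 in at least 2 libraries, in 1 fit of 4 groups (4 residual degrees of freedom, prior 4.77), and in a separate fit for the cells (3 and 36.2). In kidney libraries 92.8% to 95.0% of values were whole multiples of 1 read (0.0082 to 0.028) within 0.02 of a read, which gave the recovered reads, rounded for edgeR 4.0.16 (quasi-likelihood) and DESeq2 1.42.0. Pkd1 control 1 is the least certain. Whole reads could not be recovered from the cell table, so no count test was run there. Exon lengths and overlaps are from GENCODE M21 (GRCm38). Only the kidney limma fit was tried on simulated counts, with a fixed spread and changes in Pkd1 knockouts alone. Its outcome is not given here, and the cell fit was not simulated.

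Samples were grouped by genotype and age, or by gapmer, from the labels. All 32 genes are named. From the other lists, called genes with the smallest adjusted p were named, at most 4 a list. Pdia6, D630045J12Rik, Tmem213, Gm38392, Aqp2, Aqp3, Dmrt2, Adgrf5 and the mast cell genes were named outside this rule, after their values were seen. Some genes of these lists are not reported here. The genes and lists were chosen with earlier results of these data known. The alternatives tried were count tests, a sex covariate (summed Y-linked genes), no filter, quantile scaling, a pseudocount of 0.1, separate fits for the models, the replicate number as a block, and each library left out, which assumes that a library left alone varies like those of the other groups.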

Additional observations from a re-analysis of the deposited data

Results flagged for a closer look

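Car2 and Kit were flagged because every knockout library of 1 model lay on the opposite side of its controls from every knockout library of the other. Such separation is frequent with 2 libraries against 2. Over all genes tested, both knockouts lay below both controls in 29.2% (Pkd1) and 30.9% (Pkd2), and above both in 29.1% and 31.9%. The share of all genes with opposite separation in the models was not computed. For Car2 both Pkd1 knockouts (105 and 145) lay above their controls (88.6 and 78.0) and both Pkd2 knockouts (118 and 112) below theirs (128 and 140), a difference of the effects of 0.77 on the log2 scale. For Kit both Pkd1 knockouts (15.0 and 14.9) lay below their controls (18.7 and 17.0) and both Pkd2 knockouts (16.1 and 31.3) above theirs (13.9 and 14.1), a difference of -0.89, with Pkd2 knockout 2 standing apart from the other libraries. By limma's test of the difference neither was called (adjusted p = 0.47 for Car2 and 0.57 for Kit), so a difference between the models is not shown for either gene.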

How the results depend on the processing

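Over the alternatives tried, no value that passed a test changed its sign. Calls among the 32 genes were 14 and 14 (Pkd1 and Pkd2) by DESeq2, 12 and 9 by edgeR, 11 and 9 with quantile scaling, 12 and 11 with a pseudocount of 0.1, and 12 and 14 with a sex covariate, against 12 and 11. With the sex covariate Foxi1 was lost and Atp6v1e1 gained in the Pkd1 model. In the Pkd2 model Rhcg was lost, and Atp6v0b, Atp6v0e2, Atp6v1f and Kit were gained. Without the filter they were 9 and 5, and in a fit on the 4 libraries of 1 model alone 12 and 6. For the difference between models DESeq2 called 1, and all other settings 0. For the controls of day 20 against day 10, against 2, DESeq2 called 5, no filter 0, the sex covariate 1 and the replicate block 1. The call with the sex covariate was that of Aqp6, and those of Slc26a4 and Atp6v1c1 were lost there. With the replicate block 11 and 8 were called in the knockout comparisons, 0 for the difference and 7 of 7 in the cells. The labels do not pair the numbers, and deviations of same-numbered libraries had a correlation of -0.378 between Pkd1 controls and knockouts and -0.049 in the Pkd2 model. Leaving out single libraries gave 5 to 13 calls (Pkd1), 2 to 18 (Pkd2), 0 to 0 (difference), 0 to 5 (age) and 5 to 7 (cells), and class differences from -0.73 to -0.29 and -0.63 to -0.24. The cause was not tested. The count test planned for the cells was not run. With 2 libraries a group, changes the size of those of Atp6v0a4 were near the limit of what could be called, and Aqp6 and Slc26a4 in Pkd1 knockouts rested on the fewest reads.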
